A study of Homo sapiens with 8 samples.

Results

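The 10 amino acid transporter genes described here were SLC3A2, SLC7A5, SLC7A11, SLC7A1, SLC43A1, SLC38A1, SLC38A2, SLC1A4, SLC1A5 and SLC6A9. They were taken from the tables by gene symbol, and each had exactly 1 row in both deposited tables, out of 42935 gene rows for MCF10A and 42969 for the second line. MCF10A is a non-tumorigenic human mammary epithelial cell line, and the second line is MCF10A with added expression of the NOTCH1 intracellular domain. RNA was sequenced from 4 groups of 2 samples, after 3 days with 30 µM ginkgolic acid, a plant phenol that inhibits the attachment of SUMO to proteins, or with its solvent DMSO. The groups were NOTCH1-labelled cells under ginkgolic acid, NOTCH1-labelled cells under DMSO, MCF10A under ginkgolic acid and MCF10A under DMSO. All groups were grown in the same medium with horse serum, insulin, cholera toxin, epidermal growth factor and hydrocortisone. The labels do not name the promoter that drives the NOTCH1 fragment, nor whether the line is a clone.

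The deposited values were 1 FPKM (the fragment count per transcript length and per library size) per gene and group. No spread between samples, no test and no depth can be had from them, so every difference below is a difference between 2 group values. A size rule took the place of a test, and a gene counted as higher or lower when its groups were at least 2-fold apart (a log2 ratio of at least 1 or at most −1). The 2 tables were normalized separately, so ratios were formed within a table. In whole-culture RNA, fewer cells of a kind and less RNA per cell cannot be told apart.

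Animal cells take up amino acids through several families of membrane carriers. SLC3A2 is the glycoprotein heavy chain that brings light chains such as SLC7A5 and SLC7A11 to the plasma membrane, where the first pair exchanges large neutral amino acids and the second takes up cystine in return for glutamate. Cystine supplies the cysteine of glutathione, and SLC7A11 is a known target of the stress-responsive transcription factors ATF4 and NRF2. Several other carriers of this set are known ATF4 targets too, as part of a program that raises amino acid supply when it runs short.

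SLC7A11 had the highest ratio of the 10 genes, 11.5-fold higher under ginkgolic acid in the NOTCH1-labelled line. Its DMSO value there was near the level of silent genes. SLC1A4 had the next highest ratio in that line, over a DMSO value at the level of silent genes. Of the 10 genes, 3 (SLC7A11, SLC1A4 and SLC3A2) were higher and 0 lower by 2-fold or more in the NOTCH1-labelled line, where 18.9% of 19556 measured genes were at least 2-fold higher and 18.9% lower by 2-fold or more. In MCF10A, 1 (SLC1A4) was at least 2-fold higher and 1 (SLC6A9) lower by 2-fold or more, where 24.3% of 17690 measured genes were higher and 15.2% lower by that rule. The MCF10A counts are below these background shares and show nothing particular to the transporters. The median log2 ratio of the 10 genes was 0.39 in the NOTCH1-labelled line and 0.26 in MCF10A, beside medians of 0.06 and 0.07 over the measured genes. A minimum of 5 FPKM in place of 1 moved the background to 19.6% higher and 9.45% lower in the NOTCH1-labelled line, and to 12.4% and 16.7% in MCF10A. This minimum was not set on the members, of which SLC1A4, SLC43A1 and SLC6A9 stayed below 5 FPKM in every group. Among members past 2-fold, only SLC7A11 and SLC3A2 in the NOTCH1-labelled line reached 5 FPKM, and none did in MCF10A. In either direction, 3 of 10 members passed 2-fold in the NOTCH1-labelled line against 37.8% of genes, and 2 of 10 in MCF10A against 39.5%.

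Promoter sequence was searched because several of these genes are known ATF4 or NRF2 targets. RefSeq promoter windows (build GRCh38.p14, 300 bases around an annotated start) were at hand for 9 of the 10 genes, all but SLC7A11, and numbered 16, since some genes have several starts. The letters TGATGNAA, shared by many binding elements of ATF4 with C/EBP factors, were looked for on both strands. They stood in 5 of the 16 windows, each of another gene, and in 3.62% of all 35116 windows. The letters TGACNNNGC, the core of antioxidant response elements bound by NRF2, stood in 4 of the 16 windows and in 13.3% of all. Shown are SLC1A4 and SLC3A2, which passed 2-fold in the NOTCH1-labelled line, and SLC38A1, which holds the ATF4-type letters and did not. Capitals mark the letters found, and a match is not a shown binding site.
SLC1A4, chr2:64989149-64989448, plus strand: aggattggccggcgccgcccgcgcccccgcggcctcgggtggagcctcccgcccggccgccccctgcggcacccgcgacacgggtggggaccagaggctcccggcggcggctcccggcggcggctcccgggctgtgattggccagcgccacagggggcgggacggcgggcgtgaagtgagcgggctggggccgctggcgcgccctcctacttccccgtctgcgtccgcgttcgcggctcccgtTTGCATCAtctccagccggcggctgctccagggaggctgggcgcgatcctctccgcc
SLC3A2, chr11:62881449-62881748, plus strand: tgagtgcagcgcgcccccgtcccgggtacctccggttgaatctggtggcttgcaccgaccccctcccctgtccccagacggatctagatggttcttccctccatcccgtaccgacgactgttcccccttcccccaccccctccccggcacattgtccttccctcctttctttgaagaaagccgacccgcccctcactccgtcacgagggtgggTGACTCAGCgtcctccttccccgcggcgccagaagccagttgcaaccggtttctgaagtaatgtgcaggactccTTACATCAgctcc
SLC38A1, chr12:46266467-46266766, minus strand: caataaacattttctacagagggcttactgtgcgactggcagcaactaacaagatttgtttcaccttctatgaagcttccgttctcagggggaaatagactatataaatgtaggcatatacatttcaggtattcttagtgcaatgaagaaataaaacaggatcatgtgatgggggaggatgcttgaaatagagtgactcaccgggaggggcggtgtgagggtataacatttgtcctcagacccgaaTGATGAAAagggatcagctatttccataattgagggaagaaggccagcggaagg
In the SLC1A4 window the ATF4-type letters read TTGCATCA on the strand shown, which is the reverse complement of the searched form. The SLC3A2 window holds both kinds, TGACTCAGC and, nearer its end, TTACATCA, and the 2 do not overlap. The SLC38A1 window holds TGATGAAA. The other windows with ATF4-type letters belong to SLC1A5 and SLC7A1, and those with antioxidant-type letters to SLC1A5, SLC7A1 and SLC7A5. SLC1A5, SLC7A1 and SLC7A5 were all within 2-fold in both lines.

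The levels of the 10 genes spanned 5 orders of magnitude within each group, and the order of the highest 5 was the same in all 4 groups. SLC7A5 was highest, then SLC3A2, SLC38A2, SLC38A1 and SLC1A5. SLC7A11, SLC7A1, SLC1A4, SLC43A1 and SLC6A9 were the other 5, at 0.482 to 31.5 FPKM. Which neighbours in this order differ beyond their spread cannot be said without values per sample. As a gauge of silent genes, olfactory receptor genes, of which 367 had a row in the MCF10A table and 368 in the other, had medians of 0.228 and 0.480 FPKM in the NOTCH1-labelled line under ginkgolic acid and under DMSO. In MCF10A these medians were 0.480 and 0.144 FPKM, and the 95th percentiles over the 4 groups lay between 0.894 and 1.54 FPKM.

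**Figure D1:**
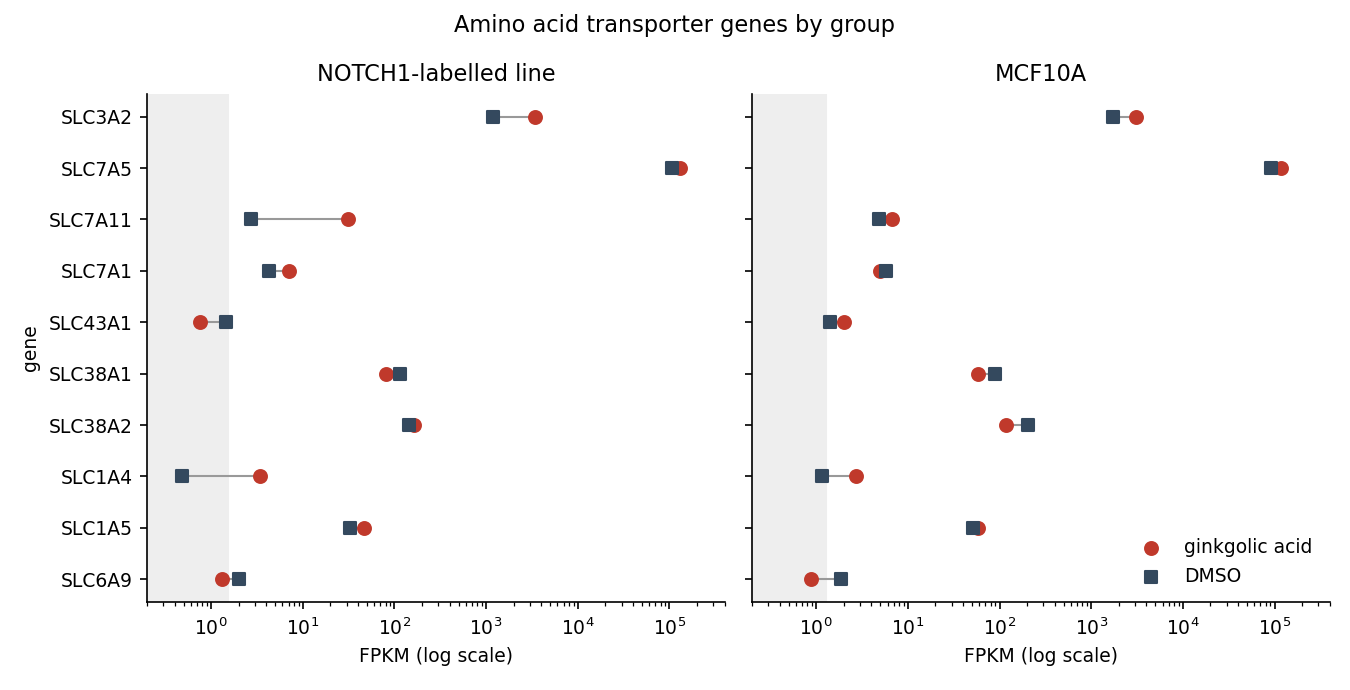
FPKM of each transporter gene (log axis) under ginkgolic acid (circles) and DMSO (squares) in the NOTCH1-labelled line (left) and in MCF10A (right), 1 deposited value per group and no error bars. The grey band ends at the higher 95th percentile of olfactory receptor genes in that table, and SLC7A11 and SLC1A4 have the longest lines, both in the NOTCH1-labelled line.

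SLC3A2, the shared heavy chain (chromosome 11, 62623517 to 62656352, on hg19 like all gene positions given below), was at 3376 FPKM under ginkgolic acid and 1200 FPKM under DMSO in the NOTCH1-labelled line. In MCF10A it was at 3068 and 1744 FPKM. The value under ginkgolic acid was thus 2.81-fold the DMSO value in the NOTCH1-labelled line and 1.76-fold in MCF10A, and 10.3% and 28.3% of the measured genes had a ratio as high or higher. Only 49 to 106 gene rows of a group were above it. The row that ends 130 bases before SLC3A2 joins SNHG1 with 8 other symbols, among them the small nucleolar RNAs of that host gene. It was at 84485 FPKM under ginkgolic acid and 473938 under DMSO in the NOTCH1-labelled line, and at 468376 and 1900000 in MCF10A. Its log2 ratios, −2.49 and −2.02, thus had the opposite sign to those of SLC3A2, and whether reads of that row reach the SLC3A2 value was not tested.

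SLC7A11, the cystine-carrying light chain (chromosome 4, locus 138948575 to 139163602 on hg19 in the MCF10A table), was at 31.5 FPKM under ginkgolic acid and 2.73 FPKM under DMSO in the NOTCH1-labelled line. In MCF10A it was at 6.77 and 4.88 FPKM. NOTCH1-labelled cells under ginkgolic acid were the group apart, and the other 3 groups lay within 2.73 to 6.77 FPKM. The value under ginkgolic acid was 11.5-fold that under DMSO in the NOTCH1-labelled line (log2 ratio 3.53), and 0.828% of the measured genes had a ratio as high or higher. In MCF10A it was 1.39-fold (log2 ratio 0.47), with 37.2% of genes as high or higher. The DMSO value of SLC7A11 in the NOTCH1-labelled line was above the 95th percentile of olfactory receptor genes in that group, 1.54 FPKM. It was below their highest value, 3.05 FPKM, and 0.272% of them had at least its FPKM. The ratio there thus rests on a value near the level of silent genes. With a pseudocount of 1 FPKM its log2 ratio was 3.12.

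The locus of SLC7A11 in the tables is shared with SLC7A11-AS1, a noncoding transcript on the opposite strand whose end overlaps 14081 bases of SLC7A11 in GENCODE release 29, and with the noncoding LINC00616. SLC7A11-AS1 was at 18.7 FPKM under ginkgolic acid and 2.48 under DMSO in the NOTCH1-labelled line, and at 8.50 and 0.590 FPKM in MCF10A. LINC00616 was at 6.04 and 0.264 FPKM in the NOTCH1-labelled line, and in MCF10A at 1.03 FPKM under ginkgolic acid and listed at 0 under DMSO. Both noncoding rows were higher under ginkgolic acid in both lines, 7.53-fold in the NOTCH1-labelled line and 14.4-fold in MCF10A for SLC7A11-AS1, whereas SLC7A11 itself passed 2-fold only in the NOTCH1-labelled line. In MCF10A the DMSO value of SLC7A11-AS1 and both values of LINC00616 lay below the 95th percentile of olfactory receptor genes in their group, 1.27 FPKM under ginkgolic acid and 0.894 under DMSO, so these ratios rest on levels of silent genes. In the NOTCH1-labelled line the DMSO value of LINC00616 lay below the median of olfactory receptor genes in that group, 0.480 FPKM, so the same holds there. Whether the counting used strand is not given in the sources used here, so reads of SLC7A11 and of its antisense partner cannot be told apart where they overlap.

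**Figure D2:**
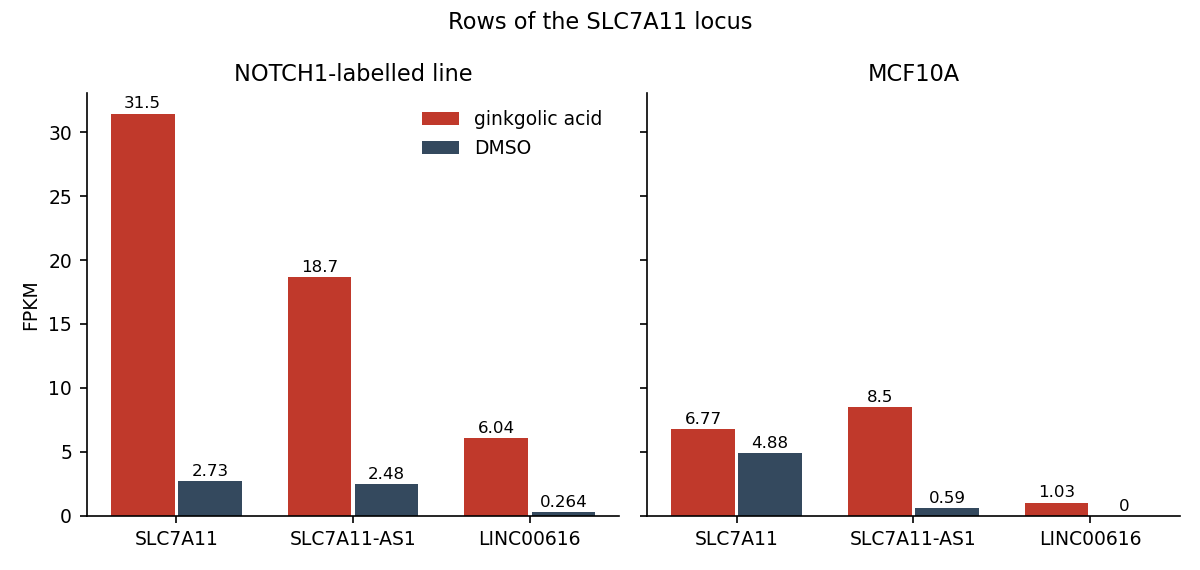
FPKM of SLC7A11 and of the 2 noncoding rows that share its locus, under ginkgolic acid (red, left bar) and DMSO (dark, right bar) in each line, 1 deposited value per group. SLC7A11 reached 31.5 FPKM only in the NOTCH1-labelled line under ginkgolic acid, while SLC7A11-AS1 was higher under ginkgolic acid in both lines.

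SLC7A5, the light chain for leucine and other large neutral amino acids (chromosome 16, 87863628 to 87903115 on hg19), was at 129311 FPKM under ginkgolic acid and 107451 under DMSO in the NOTCH1-labelled line. In MCF10A it was at 116509 and 91194 FPKM. All 4 values lay within 1.42-fold of each other, and the log2 ratios were 0.27 and 0.35, of which the first turned negative when groups were scaled to the same upper quartile. The noncoding row RP4-536B24.2 at the same locus was at 5.84 and 2.01 FPKM in the NOTCH1-labelled line and at 0.826 and 4.23 in MCF10A. At most 7 gene rows of a group were higher, and SLC7A5 alone made up 2.33% to 9.58% of the FPKM sum of all gene rows. In GENCODE release 29 SLC7A5 contains the 69-base microRNA gene MIR6775 on its own strand. How much of the value comes from the SLC7A5 messenger RNA was not tested.

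Other light chains, which were not among the 10, were far lower than SLC7A5, though not all were lower than SLC7A11. SLC7A6 was above SLC7A11 in every group but NOTCH1-labelled cells under ginkgolic acid. SLC7A7 and SLC7A8 were above SLC7A11 only in NOTCH1-labelled cells under DMSO. SLC7A6, which exchanges cationic for neutral amino acids, was at 10.2 FPKM under ginkgolic acid and 11.1 under DMSO in the NOTCH1-labelled line, and at 12.9 and 19.1 in MCF10A. SLC7A8, another light chain for neutral amino acids, was at 1.33 and 3.01 FPKM in the NOTCH1-labelled line and at 2.55 and 1.94 in MCF10A. SLC7A7, a light chain of the same exchange as SLC7A6, was at 1.38 and 7.43 FPKM in the NOTCH1-labelled line and at 4.43 and 1.26 in MCF10A, so its values went opposite ways in the lines. The lower SLC7A7 value of each line was near the level of silent genes. Olfactory receptor genes reached 1.84 FPKM in NOTCH1-labelled cells under ginkgolic acid and 1.64 FPKM in MCF10A under DMSO. SLC7A6 and SLC7A8 were picked for their role as partners of SLC3A2, after their values were seen.

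SLC7A1 and SLC43A1 work without SLC3A2 and without sodium. SLC7A1, the main carrier of arginine and lysine (chromosome 13, 30083498 to 30169825 on hg19 in the MCF10A table), was at 7.10 FPKM under ginkgolic acid and 4.26 under DMSO in the NOTCH1-labelled line, and at 4.99 and 5.70 in MCF10A. Its log2 ratios, 0.74 and −0.19, were both within 2-fold, and that in MCF10A turned positive when groups were scaled to the same FPKM sum. SLC43A1, a facilitator for large neutral amino acids (chromosome 11, 57252006 to 57283259), was at 0.762 FPKM under ginkgolic acid and 1.44 under DMSO in the NOTCH1-labelled line, and at 1.996 and 1.40 in MCF10A. Its log2 ratios were −0.92 and 0.51. In NOTCH1-labelled cells 15.5% of olfactory receptor genes had at least its FPKM under ginkgolic acid, so SLC43A1 lay near the level of silent genes.

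SLC38A1 and SLC38A2, the sodium-coupled carriers of glutamine, alanine and other small neutral amino acids, were among the abundant members. SLC38A1 (chromosome 12, 46576970 to 46663800) was at 80.5 FPKM under ginkgolic acid and 115 under DMSO in the NOTCH1-labelled line, and at 58.9 and 89.3 in MCF10A. It was lower under ginkgolic acid in both lines, by log2 ratios of −0.52 and −0.60, within 2-fold, and both signs turned when groups were scaled to the same FPKM sum. SLC38A2 (chromosome 12, 46751971 to 46767561), which is known to be induced by amino acid shortage, was at 163 FPKM under ginkgolic acid and 143 under DMSO in the NOTCH1-labelled line, and at 117 and 205 in MCF10A. Its log2 ratios were 0.19 and −0.81, and the DMSO group of MCF10A was the highest of the 4. The sign in MCF10A turned with the same FPKM sum, and that in the NOTCH1-labelled line with the same upper quartile. The only other row at the SLC38A2 locus, the noncoding RP11-474P2.2, was below 0.5 FPKM in both ginkgolic acid groups and listed at 0 in both DMSO groups.

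SLC1A4 and SLC1A5 exchange alanine, serine, cysteine and, for SLC1A5, glutamine in a sodium-dependent way. SLC1A4 (chromosome 2, 65215610 to 65251029 in the MCF10A table) was at 3.41 FPKM under ginkgolic acid and 0.482 under DMSO in the NOTCH1-labelled line, and at 2.74 and 1.16 in MCF10A. The value under ginkgolic acid was 7.08-fold that under DMSO in the NOTCH1-labelled line and 2.35-fold in MCF10A (log2 ratios 2.82 and 1.23), and 2.05% and 19.9% of measured genes had a ratio as high or higher. The DMSO values were low. In NOTCH1-labelled cells under DMSO 49.7% of olfactory receptor genes had at least the FPKM of SLC1A4, so its ratio there rests on a level of silent genes. With ginkgolic acid none of the 368 and 367 olfactory receptor genes reached SLC1A4. With a pseudocount of 1 FPKM its log2 ratio was 1.57 in the NOTCH1-labelled line, and 0.79 in MCF10A, under the size rule. SLC1A4 contains a 115-base small RNA gene in GENCODE release 29, and a U6 row at the same locus was listed at 0 in the NOTCH1-labelled line under ginkgolic acid and at 54.7 FPKM under DMSO, and at 13.8 FPKM and 0 in MCF10A.

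SLC1A5, the abundant one of that pair (chromosome 19, 47278139 to 47291842), was at 46.9 FPKM under ginkgolic acid and 33.0 under DMSO in the NOTCH1-labelled line, and at 58.0 and 51.4 in MCF10A. Its log2 ratios of 0.51 and 0.17 were within 2-fold. SLC6A9, the sodium- and chloride-coupled glycine carrier (chromosome 1, 44457030 to 44497171 in the MCF10A table), was at 1.33 FPKM under ginkgolic acid and 2.02 under DMSO in the NOTCH1-labelled line, and at 0.869 and 1.88 in MCF10A. It was lower under ginkgolic acid in both lines as deposited and with each of the 3 scalings tried, by log2 ratios of −0.61 and −1.12 as deposited, and 22.1% of olfactory receptor genes had at least its FPKM in MCF10A under ginkgolic acid. In MCF10A the ratio was −0.63 with a pseudocount of 1 FPKM. CCDC24, which overlaps SLC6A9 on the opposite strand, was at 1.16 and 4.52 FPKM in the NOTCH1-labelled line and at 2.54 and 3.05 in MCF10A.

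To ask whether the lines responded differently, each gene's NOTCH1-labelled log2 ratio was reduced by its MCF10A ratio. The difference was 3.05 for SLC7A11, 1.59 for SLC1A4 and 1.00 for SLC38A2, and −1.43 for SLC43A1. The other 6 genes differed by less than 1, from −0.09 for SLC7A5 to 0.93 for SLC7A1, and the signs for SLC38A1 and SLC1A5 turned under some scalings. Thus 3 of 10 were higher and 1 lower by the size rule, where 21.6% of 15507 genes measured in both lines were higher and 22.5% lower. SLC7A11 alone among the 4 stayed past the threshold with a pseudocount of 1 FPKM, and was at its lowest, 2.55, with the same upper quartile. No difference was tested, since there is no error for either ratio.

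**Figure D3:**
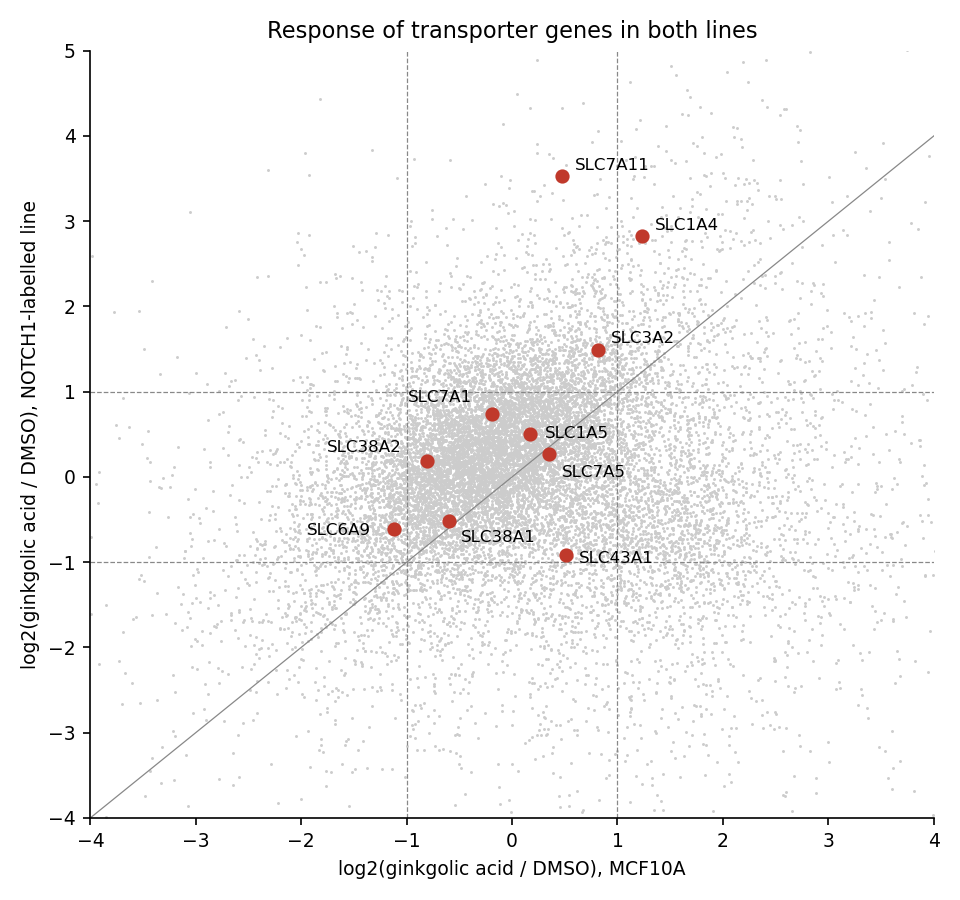
Log2 ratio of ginkgolic acid over DMSO in MCF10A (x axis) and in the NOTCH1-labelled line (y axis) for the 10 transporter genes (red) and the 15507 genes measured in both (grey, 230 outside the axes). Dashed lines mark 2-fold, the solid line equal ratios, and SLC7A11 lies farthest above it among the 10, at 3.53 against 0.47.

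Levels in the lines come from tables with an unknown factor between them. With ginkgolic acid, SLC7A11 was at 31.5 FPKM in the NOTCH1-labelled line and 6.77 FPKM in MCF10A, a ratio of 4.65, and SLC43A1 was at 0.762 and 1.996 FPKM. Of the 10 genes, 1 was at least 2-fold higher and 1 lower by 2-fold or more in the NOTCH1-labelled line, where 15.8% of 11785 genes at or above 1 FPKM throughout were higher and 4.07% lower. With DMSO, SLC1A4 was at 0.482 FPKM in the NOTCH1-labelled line and 1.16 FPKM in MCF10A and was the only member 2-fold apart, 0 higher and 1 lower, where 10.6% and 8.5% of genes were. The shares are over genes at 1 FPKM or more in all 4 groups, which SLC1A4, SLC43A1 and SLC6A9 were not, and of the 7 members that were, SLC7A11 alone was 2-fold apart, under ginkgolic acid. SLC7A11 was at 2.73 and 4.88 FPKM under DMSO. Of the 4 groups, NOTCH1-labelled cells under DMSO had the lowest level of SLC7A11 and SLC1A4, as of SLC3A2, SLC7A1 and SLC1A5. That value is the denominator of the ratio in the NOTCH1-labelled line, so a low value and a high ratio are not separate observations. The median log2 ratio of the 11785 genes between the lines was 0.36 under ginkgolic acid and 0.02 under DMSO.

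Among 34 other amino acid carriers of the plasma membrane, 14 were too low to count as measured in the NOTCH1-labelled line and 16 in MCF10A. Of the 34, 20 were measured in the NOTCH1-labelled line, with 2 at least 2-fold higher, 6 lower by 2-fold or more and a median log2 ratio of −0.34. In MCF10A 18 were measured, with 5 higher, 2 lower and a median of 0.28. With a minimum of 5 FPKM the medians were −0.23 in the NOTCH1-labelled line and −0.39 in MCF10A, both below 0. The shares over all measured genes were 18.9% higher and 18.9% lower in the NOTCH1-labelled line and 24.3% and 15.2% in MCF10A. SLC43A2, a facilitator for large neutral amino acids like SLC43A1, was at 4.02 FPKM under ginkgolic acid and 15.2 under DMSO in the NOTCH1-labelled line, and at 2.70 and 21.5 in MCF10A. It was lower by at least 2-fold in both lines. SLC6A6, the taurine carrier, was at 6.87 and 2.87 FPKM in the NOTCH1-labelled line and at 2.20 and 7.63 in MCF10A, and SLC36A2, a proton-coupled carrier of small amino acids, was at 1.88 and 2.73 and at 3.81 and 1.44. Carriers of lysosomes and mitochondria were mostly within 2-fold, with medians of −0.01 and −0.20 over 17 measured of 20 listed. In NOTCH1-labelled cells 1 was higher and 1 lower, and in MCF10A 1 was higher and 3 lower. SLC38A9, the lysosomal arginine sensor of mTORC1, was at 14.1 and 23.1 FPKM in the NOTCH1-labelled line and at 6.77 and 21.8 in MCF10A. SLC38A7, which exports glutamine from lysosomes, had log2 ratios of −0.11 and −1.92, SLC25A15, the mitochondrial ornithine carrier, −0.73 and −1.83, and SLC25A44, which carries branched-chain amino acids into mitochondria, −1.43 and −0.20.

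Genes of the amino acid response, which share the regulator ATF4 with many of these carriers, were mostly higher. In NOTCH1-labelled cells 19 of 23 measured were at least 2-fold higher and 0 lower, with a median log2 ratio of 2.13, and in MCF10A 15 of 23 were higher and 1 lower, with a median of 1.16. Over all measured genes 18.9% were higher and 18.9% lower in the NOTCH1-labelled line, and 24.3% and 15.2% in MCF10A. ATF4 itself was at 532 FPKM under ginkgolic acid and 175 under DMSO in the NOTCH1-labelled line, and at 410 and 184 in MCF10A. ASNS, which makes asparagine, was at 74.97 and 22.95 FPKM and at 121 and 29.02, and CHAC1, which degrades glutathione, at 6.77 and 0.426 and at 1.84 and 0.429, where both DMSO values lie at the level of silent genes. DDIT3, PPP1R15A, TRIB3 and ATF3, stress genes of that list, had log2 ratios of 6.24, 5.00, 4.89 and 3.71 in the NOTCH1-labelled line and 3.66, 3.75, 2.41 and 2.74 in MCF10A. The transporters thus had lower medians than the genes of this list in both lines.

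Enzymes that use or replace the carried amino acids were described in the same way, beside the same shares over all measured genes. These were 18.9% higher and 18.9% lower in the NOTCH1-labelled line, and 24.3% and 15.2% in MCF10A. Of 9 measured genes of serine, glycine and proline synthesis, 5 were higher and 0 lower in the NOTCH1-labelled line, with a median of 1.03, and 2 were higher and 2 lower in MCF10A, with a median of 0.25. PHGDH, the first enzyme of serine synthesis, was at 68.6 FPKM under ginkgolic acid and 6.97 under DMSO in the NOTCH1-labelled line, and at 45.1 and 4.99 in MCF10A. MTHFD2, a mitochondrial folate enzyme, had log2 ratios of 1.32 and 1.85, the related MTHFD1L 1.62 and 0.17, and PSPH, the last enzyme of serine synthesis, 0.59 and −1.59. Of 9 measured genes that link cystine to glutathione, 2 were higher and 1 lower in the NOTCH1-labelled line and 2 higher and 0 lower in MCF10A, with medians of 0.73 and 0.40. The counts of this glutathione list were near or below the shares over all measured genes. GCLM, the modifier subunit of the enzyme that commits cysteine to glutathione, was at 20.4 and 7.01 FPKM in the NOTCH1-labelled line, where SLC7A11 was also higher, and at 9.66 and 5.02 in MCF10A. GSS, which completes glutathione, had log2 ratios of 1.42 and 0.76. CTH and CBS, which make cysteine within the cell, had log2 ratios of 0.28 and 0.02 in the NOTCH1-labelled line and 2.30 and 1.25 in MCF10A. Under DMSO in MCF10A they were at 1.18 and 1.37 FPKM, where olfactory receptor genes reached 1.64 FPKM. Their ratios in MCF10A thus rest on values near the level of silent genes. NFE2L2, which encodes NRF2, was at 217 and 93.9 FPKM in the NOTCH1-labelled line and at 125 and 92.4 in MCF10A.

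Of 10 genes of glutamine and glutamate metabolism, 3 were higher and 1 lower in the NOTCH1-labelled line, with a median of 0.59, and 1 was higher and 1 lower in MCF10A, with a median of −0.12. GLUL, which makes glutamine, was lower in both lines, at 264 FPKM under ginkgolic acid and 862 under DMSO in the NOTCH1-labelled line and at 247 and 818 in MCF10A. GLS2 and GOT1, which release and transfer the amino group of glutamine and glutamate, had log2 ratios of 1.46 and 1.63 in the NOTCH1-labelled line and 0.10 and 0.57 in MCF10A, and GFPT1, which uses glutamine for hexosamines, had 1.31 and 1.59. Of 22 measured genes by which mTORC1 senses amino acids, 1 was higher and 0 lower in the NOTCH1-labelled line and 0 were higher and 2 lower in MCF10A, with medians of 0.35 and −0.33. RRAGC, a GTPase of that list, had log2 ratios of 1.09 and 0.09, and the related RRAGB had −0.36 and −1.32. LAMTOR1, a lysosomal anchor of that list, had −0.62 and −1.53. Over all measured genes 18.9% were higher and 18.9% lower in the NOTCH1-labelled line, and 24.3% and 15.2% in MCF10A. Apart from the 3 higher glutamine and glutamate genes in the NOTCH1-labelled line, the counts of both lists were below these shares. MYC, a known activator of several carrier genes, was at 79.0 and 69.5 FPKM in the NOTCH1-labelled line and at 35.2 and 105 in MCF10A. Over the 2 lines, the pair of ratios closest to the transporters' median pair among 97 genes of these lists belonged to RRAGD, SLC25A12 and LAMTOR4, at distances of 0.0707, 0.0713 and 0.166 on the log2 scale. RRAGD was at 1.29 FPKM under ginkgolic acid and 1.01 under DMSO in the NOTCH1-labelled line. The DMSO value was below the 95th percentile of olfactory receptor genes in that group, 1.54 FPKM, so its ratio there rests on a level of silent genes.

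**Figure D4:**
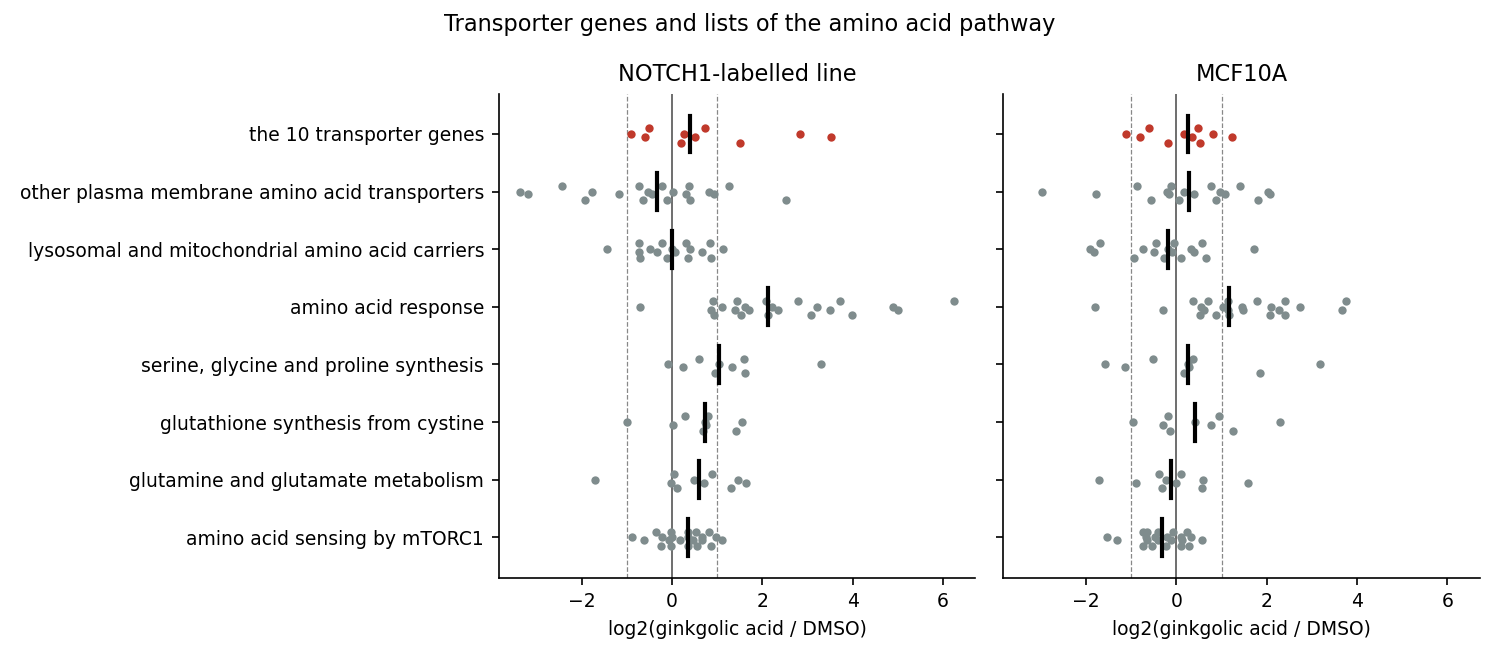
Log2 ratio of ginkgolic acid over DMSO of single genes (points) in each list and line, with the median as a black bar and 2-fold as dashed lines. The 10 transporter genes (red) have medians of 0.39 in the NOTCH1-labelled line and 0.26 in MCF10A, below the amino acid response at 2.13 and 1.16.

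The labels were checked against the data. NOTCH1 was at 12.4 FPKM under ginkgolic acid and 5.03 under DMSO in the NOTCH1-labelled line, and at 6.18 and 11.4 in MCF10A. Under DMSO the label is thus not borne out. The row covers the whole gene and does not give the added fragment by itself. Every direction between the lines therefore rests on the label. All mammary epithelial markers with a row of their own, 13 of 14 in the NOTCH1-labelled line and 11 of 14 in MCF10A, were at 1 FPKM or more. Their FPKM summed to 2369 under ginkgolic acid and 1969 under DMSO in the NOTCH1-labelled line, and to 854 and 795 in MCF10A. These sums hold unlike sets of markers, so they cannot be compared between the lines. KRT5 alone was at 614 and 990 FPKM in the NOTCH1-labelled line. Among markers of other cell types the highest was DCN, a fibroblast marker, at 31.8 and 63.4 FPKM in the NOTCH1-labelled line and at 9.11 and 18.0 in MCF10A. In MCF10A under DMSO the immune marker CD14 was at 13.6 FPKM and the endothelial marker KDR at 9.32. In these 4 groups, 4, 5, 5 and 4 of 6 fibroblast markers reached 1 FPKM, with sums of 43.1, 73.1, 23.1 and 30.7 FPKM. For immune markers these were 4, 4, 6 and 3 of 7, with sums of 15.02, 16.02, 15.1 and 18.4, and for endothelial markers 1, 2, 3 and 2 of 5, with sums of 2.95, 3.84, 5.16 and 10.9. The endothelial marker CLDN5 was listed at 0 in MCF10A under DMSO and no other marker was at 0. The part of these levels in the transporter values was not tested.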

How the data were processed

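Total RNA was prepared with RNeasy columns and ScriptSeq Complete Gold libraries, per the labels' protocols. Cuffdiff 2.1.1, Cufflinks 2.1.1, TopHat2 2.0.8b and Bowtie2 2.1.0 were used on GRCh37 (hg19), per the submitters' processing notes. Their settings, the annotation and any pooling step are not stated there. What the authors deposited was 2 tables of FPKM, 1 value per gene and group, per the file headers. Depth is therefore unknown, and the limma test planned for values per sample could not be run. The labels do not say whether samples of a group came from separate cultures.

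Unnamed rows (15977 of 70227 for MCF10A, 5455 of 59662 for the NOTCH1-labelled line), joined rows (1575 and 1570), small RNAs, genes under 200 bases in GENCODE release 29, rows outside chromosomes 1 to 22, X, Y and M and repeated symbols were left out. Measured genes had at least 1 FPKM in either group and a value above 0 in both. Ratios are log2 of ginkgolic acid over DMSO with no pseudocount. The computation returned folds planted without noise in the DMSO values, which checks the arithmetic only. Positions are loci of the tables, which can span several genes. Promoter windows are RefSeq's, on GRCh38.p14. The members and lists were chosen with earlier results of these data known. All 10 members were named, with ATF4, ASNS, CHAC1, NFE2L2 and MYC, up to 4 genes per list with the largest ratio past 2-fold and at least 1 FPKM in both groups, and the 3 genes nearest the members' median pair of ratios. Partners of SLC3A2, neighbouring rows and olfactory receptor genes were added after their values were seen. Other settings were pseudocounts of 1 and 0.1 FPKM, minimums of 0 and 5 FPKM, 3 scalings, joined rows and a 1.5-fold rule. Computations used Python 3.11.15, numpy 2.4.6, pandas 2.3.3 and matplotlib 3.10.9.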

Additional observations from a re-analysis of the deposited data

How the results depend on the processing

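No paired analysis was possible because the tables hold 1 value per group, and for the same reason leaving out a replicate was not run. The main limits are that no replicate error and no depth can be had, that SLC1A4, SLC43A1 and SLC6A9 lie near the level of silent genes, and that what the very high values of SLC7A5 and SLC3A2 hold was not tested. SLC7A11 under DMSO in the NOTCH1-labelled line also lay near the level of silent genes. The cause of the changes below was not tested. Counting joined rows changed no value, since no joined row holds a member. Leaving out SLC7A5 and SLC3A2, chosen after seeing the data, left 2 members higher in place of 3 in the NOTCH1-labelled line, since SLC3A2 drops out. The other counts of members did not change.

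With a pseudocount of 1 FPKM, MCF10A had 0 members higher and 0 lower, with log2 ratios of 0.79 for SLC1A4 and −0.63 for SLC6A9. The difference between lines then had 1 member higher and 0 lower, with 0.79 for SLC1A4, 0.99 for SLC38A2 and −0.79 for SLC43A1. With 0.1 FPKM the difference of SLC38A2 was 0.999953. With members at 1 FPKM or more in both groups, added after seeing the data, 0 were lower in MCF10A and 0 in the difference, and 2 in place of 3 were higher both in the NOTCH1-labelled line and in the difference, since SLC1A4 drops out. With a threshold of 1.5-fold, 2 were higher and 3 lower in MCF10A, 2 lower in the NOTCH1-labelled line and 5 higher in the difference.

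Scaling added 0.11 (median removed), 0.18 (same upper quartile) and 0.99 (same FPKM sum) to the MCF10A log2 ratios, and −0.14, −0.33 and 0.55 to those of NOTCH1-labelled cells. The 10 highest rows hold 33.7% to 75.5% of an FPKM sum. With the median removed, SLC43A1 in the NOTCH1-labelled line was at −1.06, so 1 member was lower, and the difference was −0.17 for SLC38A1 and 0.75 for SLC38A2. With the same upper quartile, NOTCH1-labelled cells had −0.14 for SLC38A2, −0.0622 for SLC7A5 and −1.25 for SLC43A1, so 1 member was lower. SLC6A9 in MCF10A was at −0.94, so 0 were lower, and the difference was −0.18 for SLC1A5, −0.43 for SLC38A1 and 0.49 for SLC38A2. With the same FPKM sum, 6 members were higher and 0 lower in MCF10A, with 1.17 for SLC1A5, 0.39 for SLC38A1, 0.18 for SLC38A2, 1.81 for SLC3A2, 1.51 for SLC43A1, −0.12 for SLC6A9, 0.80 for SLC7A1, 1.47 for SLC7A11 and 1.35 for SLC7A5. In NOTCH1-labelled cells 5 were higher, with 1.05 for SLC1A5, 0.0287 for SLC38A1 and 1.29 for SLC7A1, and the difference was −0.11 for SLC1A5, −0.36 for SLC38A1 and 0.56 for SLC38A2. The ratio of SLC7A11 in the NOTCH1-labelled line, and its difference between lines, stayed above 2-fold in every setting tried.

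Counts over all genes moved with the minimum. With 5 FPKM, 1933 genes were higher and 933 lower in the NOTCH1-labelled line, 19.6% and 9.45% of 9877, and 1164 and 1571 in MCF10A, 12.4% and 16.7% of 9424, with a median of −0.18. With no minimum, 6757 were lower in the NOTCH1-labelled line, with a median of −0.0897, and 8275 higher in MCF10A. With a pseudocount of 1 FPKM, the counts were 2264 higher and 1750 lower in the NOTCH1-labelled line and 2111 and 1702 in MCF10A. With the median removed, the median over measured genes in the NOTCH1-labelled line was −0.0803.

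Among the lists in the NOTCH1-labelled line, other plasma membrane carriers had 1 gene higher and 2 lower with 5 FPKM, and 4 higher and 10 lower with no minimum. Lysosomal and mitochondrial carriers had 0 higher with 5 FPKM, with the pseudocount and with the median removed, and with no minimum 2 higher and a median of 0.0221. The mTORC1 list had 0 higher and 1 lower with the median removed, the amino acid response 1 lower with no minimum, and the glutathione list 0 lower with the pseudocount. The median of serine, glycine and proline synthesis was 0.89 with the median removed and 0.94 with the pseudocount. In MCF10A, other plasma membrane carriers had 0 higher and a median of −0.39 with 5 FPKM, 12 higher with no minimum and 1 higher with the pseudocount. Lysosomal and mitochondrial carriers had 0 higher with 5 FPKM or the pseudocount. With 5 FPKM the amino acid response had 0 lower. The glutathione list had 1 higher and serine, glycine and proline synthesis 1 lower, each with 5 FPKM and with the pseudocount.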
